A study of Mus musculus with 6 samples.

Results

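The MHC class II genes and their regulators were described in Tregs sorted from B16.F10 melanomas, as a readout of antigen-presenting cell RNA in those libraries. The members were the rows of the table named *H2-Aa*, *H2-Ab1* and *H2-Eb1* (chains of the class II molecules), *Cd74* (the invariant chain), *H2-DMa* and *H2-DMb1* (the DM peptide editor), and *Ciita*, *Rfx5*, *Rfxank* and *Rfxap* (the transcription factors of the pathway). All 10 were found among the 12153 genes of the table. The rule takes them by name and uses no measured value, but the list of members was chosen with earlier results of these data known.

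The control group was 3 libraries from hosts that carry a floxed *Nr3c1*, the gene of the glucocorticoid receptor (GR). The *Nr3c1Foxp3-Cre* group was 3 libraries from hosts with the same floxed gene plus a Foxp3-YFP/Cre allele, so that Cre is made where *Foxp3* is active and GR is deleted in Tregs. Both groups had B16.F10 tumors, a mouse melanoma line, taken on day 15 and digested with Liberase TL and DNase I. Per the study's methods female and male mice were combined. The age of the hosts is not given in the sources used here, and neither is whether libraries of 1 group came from separate mice, so the p-values measure the spread between these libraries. The labels describe a sort on CD45, CD4 and CD25, whereas the study's methods describe Foxp3-YFP+ CD4+ cells from which cells with B220, CD11c, CD11b, TCR-γδ or NK1.1 were gated out. The labels give the controls no YFP allele, so a difference in sorting between the groups cannot be told apart from genotype.

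The values are log2 CPM (counts per 1000000) after quantile normalization by the authors, and read depth is unknown. The T cell markers were at high levels, with *Cd4* at 8.69 to 9.32 and *Cd3e* at 8.65 to 9.11 log2 CPM, and *Il2ra* (the CD25 gene) at 8.20 to 8.75 over the 6 libraries. *Nr3c1* was at 6.88 to 7.59 log2 CPM in control libraries and 5.45 to 6.14 in *Nr3c1Foxp3-Cre* libraries, a log2 fold change of -1.38 (limma adjusted p = 0.120). *Tsc22d3*, a classical GR target, was lower by a log2 fold change of -1.56 (limma adjusted p = 0.0342). The melanocyte marker *Pmel* was at 9.65 to 10.95 log2 CPM, and the 8 melanocyte markers summed to between 3598 and 10090 CPM in a library.

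Class II molecules are heterodimers of an α and a β chain that present peptides from the endosome to CD4+ T cells. The invariant chain *Cd74* fills the groove during assembly, endosomal proteases trim it, and DM exchanges its last fragment for peptide, a step that the relative DO restrains. Transcription of the class II chain, invariant chain and DM genes rests on the RFX complex (*Rfx5*, *Rfxank* and *Rfxap*), which sits on the X box of their promoters beside NF-Y on the Y box, and on the coactivator *Ciita*, which is induced by interferon-γ. Dendritic cells, B cells and activated macrophages are the main sources of class II, and mouse T cells are usually described as lacking it.

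The letters of that promoter module are shown for 3 members, *H2-Aa*, *H2-Eb1* and *H2-DMb1*, whose windows hold it in 1 orientation. The windows came from RefSeq on GRCm38.p6 and reach from 250 bases before to 50 bases after a gene's start. Windows of 6 members were searched by name. For *H2-Ab1*, *Ciita* and *Rfxap* there was no window to use, whereas *Cd74* was left out of that search by choice. Whether the promoters of *Cd74*, *H2-Ab1*, *Ciita* and *Rfxap* hold the module was not tested. The windows were searched on both strands for CTNGNAAC, letters found in X boxes, and TGATTGG, letters found in Y boxes, which do not overlap each other in the matches shown. Both strings were chosen after the promoters had been read, so the matches are a description. The 150 bases before the start are printed with both matches in capitals, for *H2-Aa* at chr17:34287824-34287973 (minus strand), *H2-Eb1* at chr17:34305717-34305866 (plus strand) and *H2-DMb1* at chr17:34153041-34153190 (plus strand).
H2-Aa: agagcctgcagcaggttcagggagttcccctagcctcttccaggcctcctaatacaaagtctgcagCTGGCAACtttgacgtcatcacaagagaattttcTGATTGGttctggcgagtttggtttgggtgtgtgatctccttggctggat
H2-Eb1: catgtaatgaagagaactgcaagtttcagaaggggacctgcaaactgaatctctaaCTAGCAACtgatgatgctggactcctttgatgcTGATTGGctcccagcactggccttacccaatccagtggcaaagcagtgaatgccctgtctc
H2-DMb1: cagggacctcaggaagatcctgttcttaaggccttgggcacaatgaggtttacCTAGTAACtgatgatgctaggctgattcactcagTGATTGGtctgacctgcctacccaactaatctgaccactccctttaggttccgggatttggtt

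In these windows TGATTGG followed CTNGNAAC after 26 bases in *H2-Aa*, 25 bases in *H2-Eb1* and 26 bases in *H2-DMb1*. Among the other class II genes, *H2-Ob* held the pair at 23 bases, and *H2-DMb2*, *H2-Oa* and *H2-Eb2* did not hold it. *Rfx5* held both strings on the opposite strand with 6 bases between them, whereas the windows of *H2-DMa* and *Rfxank* held no pair. Of the 32851 windows searched, 13.2% held CTNGNAAC and 7.82% held TGATTGG. The pair in this order on 1 strand, with at most 40 bases between, was held by 31 windows, or 0.0944%.

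The 10 members showed no difference between genotypes that passed the test over all genes. The invariant chain *Cd74*, the most abundant of them, differed by 0.0032 log2 units between the group means. *H2-Aa*, the α chain of I-A, had the lowest p of the members, with a lower mean in *Nr3c1Foxp3-Cre* libraries (fold 0.736, 95% CI 0.574 to 0.944), but its groups overlapped. The other chains, both DM chains, *Ciita*, *Rfxank* and *Rfxap* had lower means by log2 fold changes of -0.44 to -0.089, and *Rfx5* had a higher mean by 0.19.

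At an adjusted p under 0.05 (limma, Benjamini-Hochberg over 12153 genes), 0 of the 10 members were called, against 7 genes in all (0.0576%, with 0.0494% lower and 0.00823% higher, and 0 to 8 genes with 1 library left out), and every member had an adjusted p of 1.0. At an unadjusted p under 0.05, 1 of the 10 members was called, *H2-Aa*, against a background of 3.26% (1.65% lower and 1.61% higher). The groups did not overlap for 2 members, *H2-Ab1* and *Rfxap*, against 7.41% of all genes (3.73% for lower genes). With 1 library fewer more genes are apart by construction: the count was 5 members without control 2, against 20% of all genes, and 4 members without *Nr3c1Foxp3-Cre* 1, against 16.3%. The log2 fold change was below 0 for 8 members and above 0 for 2 members, against 50.5% of all genes below 0. Its median was -0.14 over the members and -0.0014 over all genes. The plot of the members by library sets each library beside the mean and spread of its group.

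**Figure D1:**
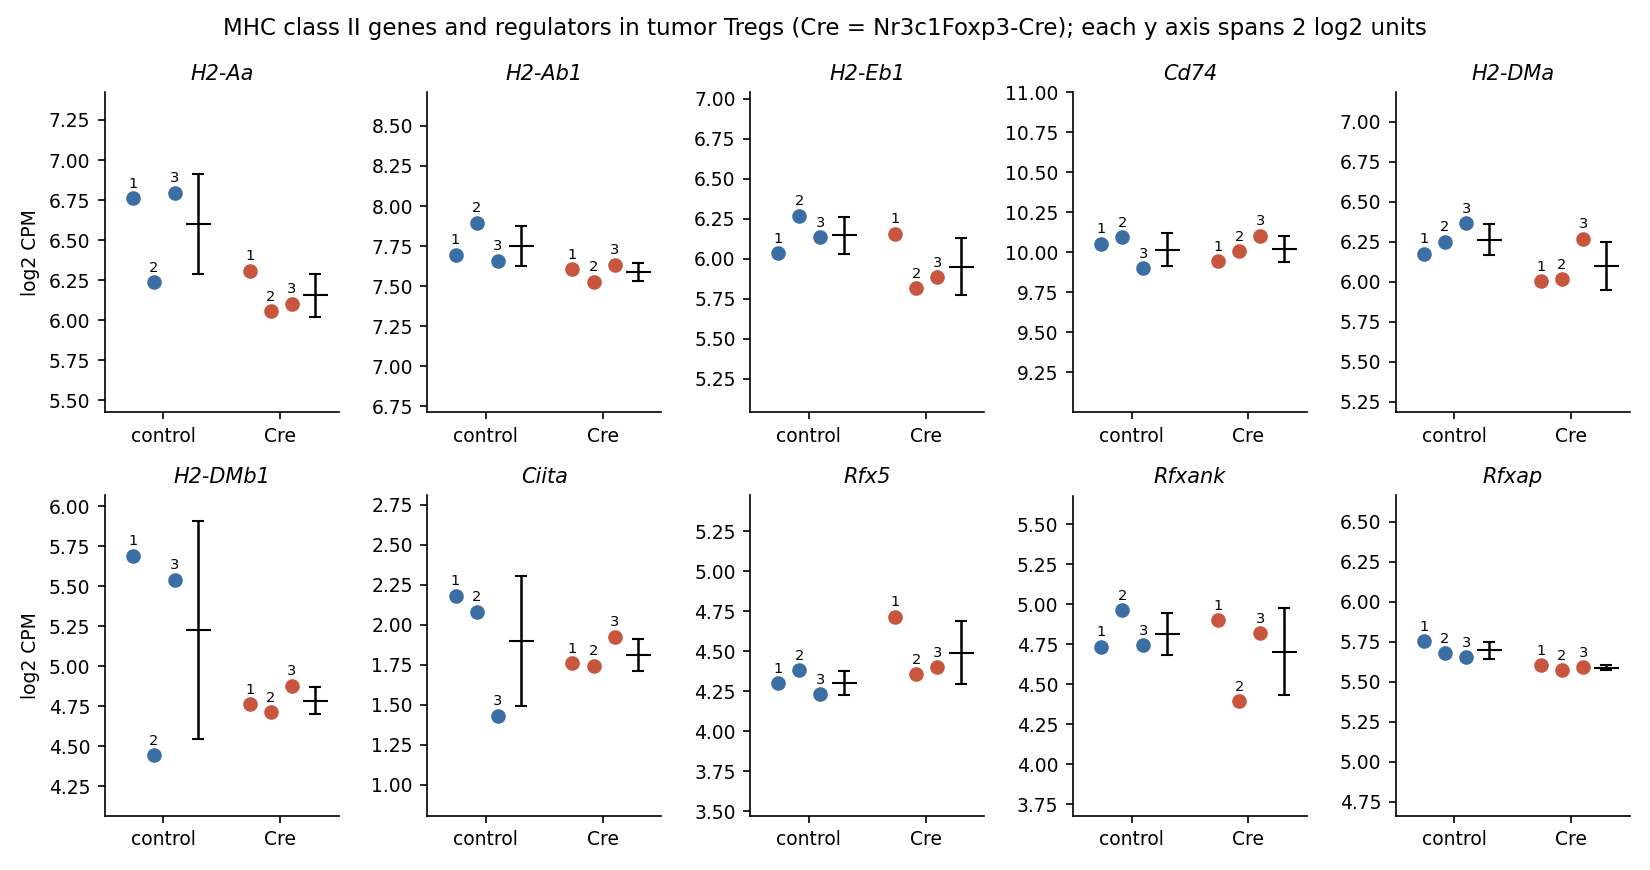
Log2 CPM of the 10 members in each library (blue, control; red, *Nr3c1Foxp3-Cre*; numbers, replicate), with bars for the mean ± SD of 3 libraries; each y axis spans 2 log2 units. The groups are apart for *H2-Ab1* and *Rfxap* alone, and *Cd74* is level. The SD is larger among controls for *H2-Aa*, *H2-Ab1*, *Cd74*, *H2-DMb1*, *Ciita* and *Rfxap*. It is larger among *Nr3c1Foxp3-Cre* libraries for *H2-Eb1*, *H2-DMa*, *Rfx5* and *Rfxank*.

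Among the chains of the class II molecules, *H2-Aa* (ENSMUSG00000036594.15, chr17:34282744-34287823, mm10) was at 6.76, 6.24 and 6.79 log2 CPM in control libraries 1 to 3 and at 6.31, 6.05 and 6.10 in *Nr3c1Foxp3-Cre* libraries 1 to 3. Control 1 and control 3 were above all others, and control 2 lay below *Nr3c1Foxp3-Cre* 1. The means were 6.60 ± 0.31 (SD, n = 3) and 6.16 ± 0.13 (SD, n = 3), or 96.9 and 71.3 CPM. This gave a log2 fold change of -0.44 (SE 0.16, 95% CI -0.80 to -0.084, limma adjusted p = 1.0). It was -0.62 without control 2 (limma adjusted p = 0.230) and -0.34 without control 3. The unadjusted p was over 0.05 when control 1, control 3, *Nr3c1Foxp3-Cre* 2 or *Nr3c1Foxp3-Cre* 3 was left out.

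*H2-Ab1* (ENSMUSG00000073421.6, chr17:34257689-34269419) encodes the β chain that pairs with the product of *H2-Aa*. It was at 7.70, 7.90 and 7.66 log2 CPM in controls and at 7.60, 7.53 and 7.63 in *Nr3c1Foxp3-Cre* libraries. Each *Nr3c1Foxp3-Cre* library lay below each control, with the nearest pair at 7.63 and 7.66. From 215 to 193 CPM, the log2 fold change was -0.16 (SE 0.099, 95% CI -0.38 to 0.060, limma adjusted p = 1.0). Without control 2, the highest library, it was -0.089.

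*H2-Eb1* (ENSMUSG00000060586.11, chr17:34305867-34316674), the β chain of I-E, was at 6.04, 6.27 and 6.13 log2 CPM in controls and at 6.16, 5.82 and 5.88 in *Nr3c1Foxp3-Cre* libraries. *Nr3c1Foxp3-Cre* 1 lay among the controls and the other two below them. Its log2 fold change was -0.19 (SE 0.13, 95% CI -0.48 to 0.094, limma adjusted p = 1.0). It was -0.30 without *Nr3c1Foxp3-Cre* 1, where the unadjusted p fell under 0.05, and -0.13 without *Nr3c1Foxp3-Cre* 2 or without control 2. The α chain gene of I-E had no value in the table, under the name *H2-Ea* or *H2-Ea-ps*. *H2-Eb1* RNA alone therefore does not show that an I-E molecule was made.

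Both chains of I-A are needed for 1 molecule, and their balance was compared within each library. *H2-Aa* minus *H2-Ab1* was -0.93, -1.66 and -0.86 log2 units in controls and -1.30, -1.47 and -1.53 in *Nr3c1Foxp3-Cre* libraries. Control 2 had the lowest ratio of the 6 libraries, with the lowest *H2-Aa* of the controls and the highest *H2-Ab1* of all. *H2-Eb1* minus *H2-Ab1* varied less, at -1.66, -1.63 and -1.53 in controls and -1.45, -1.71 and -1.75 in *Nr3c1Foxp3-Cre* libraries. Both ratios overlapped between the groups.

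*Cd74* (ENSMUSG00000024610.15, chr18:60803848-60812652) encodes the invariant chain and is also the receptor of the cytokine MIF. It was at 10.05, 10.09 and 9.90 log2 CPM in controls and at 9.94, 10.01 and 10.10 in *Nr3c1Foxp3-Cre* libraries. The groups lay over one another, at 1035 and 1037 CPM. A log2 fold change of 0.0032 (SE 0.10, 95% CI -0.23 to 0.24, limma adjusted p = 1.0) leaves room for a small change in either direction. *Cd74* ranked between 79 and 102 of the 12153 genes in the 6 libraries.

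The ratio of class II chains to invariant chain was lower on average in *Nr3c1Foxp3-Cre* libraries without separating the groups. *H2-Ab1* minus *Cd74* was -2.36, -2.20 and -2.24 log2 units in controls and -2.34, -2.48 and -2.47 in *Nr3c1Foxp3-Cre* libraries. *Nr3c1Foxp3-Cre* 1 lay among the controls. *H2-Aa* minus *Cd74* spanned -3.86 to -3.10 in controls and -4.00 to -3.64 in *Nr3c1Foxp3-Cre* libraries.

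The DM chains differed from each other in how steady they were. *H2-DMa* (ENSMUSG00000037649.10, chr17:34119541-34139101), the α chain, was at 6.17, 6.25 and 6.37 log2 CPM in controls and at 6.0, 6.02 and 6.27 in *Nr3c1Foxp3-Cre* libraries. Its log2 fold change was -0.17 (SE 0.12, 95% CI -0.43 to 0.099, limma adjusted p = 1.0), and *Nr3c1Foxp3-Cre* 3 lay among the controls. Without that library it was -0.25. *H2-DMb1* (ENSMUSG00000079547.4, chr17:34153072-34160230), a β chain, was at 5.69, 4.44 and 5.54 log2 CPM in controls and at 4.76, 4.72 and 4.88 in *Nr3c1Foxp3-Cre* libraries. Control 2 was the lowest and control 1 the highest of all 6 libraries, while the *Nr3c1Foxp3-Cre* libraries lay close together.

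For *H2-DMb1* the log2 fold change was -0.44 (SE 0.29, 95% CI -1.09 to 0.21, limma adjusted p = 1.0). Without control 2 it was -0.83 (limma adjusted p = 0.166), without control 1 it was -0.21 and without control 3 it was -0.28. Leaving out control 2 also took its unadjusted p below 0.05 and parted the groups. Among the 500 genes nearest to *H2-DMb1* in mean level, 96.6% had a smaller SD within groups. *H2-Aa* had a share of 84.8% by the same measure, and *Rfxap*, the steadiest member, 0.4%.

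*H2-DMb2* is a second β chain of DM and a close paralog of *H2-DMb1*. Of the 50-base stretches in the transcripts of *H2-DMb1*, 22.7% also occur in those of *H2-DMb2*, so reads of the pair can be split between them and their separate values are uncertain. The split varied between libraries: *H2-DMb2* made up 12.6%, 36.0% and 13.7% of the sum of both in controls and 25.9%, 30.4% and 24.7% in *Nr3c1Foxp3-Cre* libraries. Control 2 had the largest *H2-DMb2* share and controls 1 and 3 the smallest. The sum of both was 59.1, 34.0 and 54.0 CPM in controls and 36.7, 37.8 and 39.0 CPM in *Nr3c1Foxp3-Cre* libraries, and it overlapped between the groups as well.

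Both DO chains, which hold DM in check in B cells and some dendritic cells, were highest in the same control library. *H2-Oa* was at 9.98, 21.7 and 11.3 CPM in controls and at 15.6, 15.8 and 13.1 CPM in *Nr3c1Foxp3-Cre* libraries. *H2-Ob* was at 3.79, 11.1 and 5.71 CPM in controls and at 9.05, 9.28 and 9.71 CPM in *Nr3c1Foxp3-Cre* libraries. The log2 fold changes of *H2-DMb2*, *H2-Oa* and *H2-Ob* were 0.21 (95% CI -0.37 to 0.80), 0.14 (95% CI -0.51 to 0.79) and 0.59 (95% CI -0.24 to 1.41), each with a limma adjusted p of 1.0. The plot of DM and DO values by library shows the controls on both sides of the *Nr3c1Foxp3-Cre* libraries for every one of these genes.

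**Figure D2:**
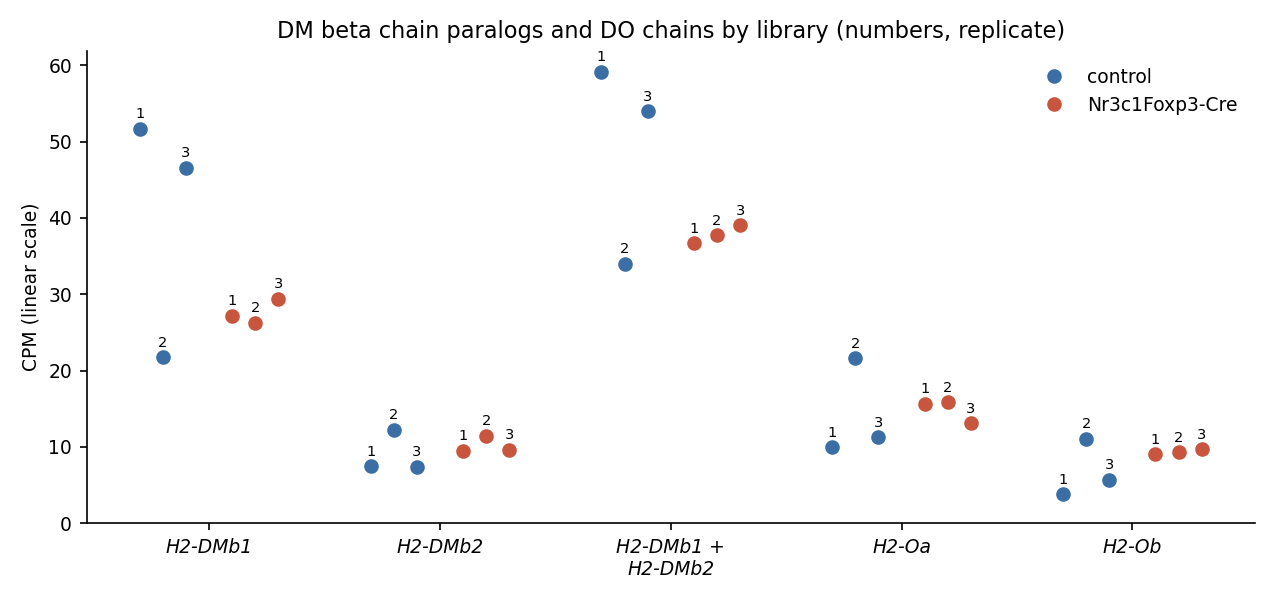
CPM on a linear scale of *H2-DMb1*, *H2-DMb2*, their sum, *H2-Oa* and *H2-Ob* in each library (blue, control; red, *Nr3c1Foxp3-Cre*; numbers, replicate). Control 2 is lowest for *H2-DMb1* (21.8 CPM) and highest for *H2-DMb2*, *H2-Oa* and *H2-Ob*, and controls 1 and 3 show the reverse.

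*Ciita* (ENSMUSG00000022504.10, chr16:10480059-10528418), the coactivator on which class II transcription depends, was the lowest member. It was at 2.18, 2.08 and 1.43 log2 CPM in controls and at 1.76, 1.75 and 1.93 in *Nr3c1Foxp3-Cre* libraries. The *Nr3c1Foxp3-Cre* libraries lay between control 3 and the other controls. At 3.73 against 3.51 CPM, the log2 fold change was -0.089 (SE 0.32, 95% CI -0.81 to 0.63, limma adjusted p = 1.0). It turned to 0.053 without control 1 and to 0.0028 without control 2, so no direction is given for it.

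Of the RFX subunits, *Rfx5* (ENSMUSG00000005774.12, chr3:94954075-94961561), which binds DNA, was at 4.30, 4.38 and 4.23 log2 CPM in controls and at 4.72, 4.36 and 4.4 in *Nr3c1Foxp3-Cre* libraries. Its log2 fold change of 0.19 (SE 0.17, 95% CI -0.19 to 0.56, limma adjusted p = 1.0) came mostly from *Nr3c1Foxp3-Cre* 1, and without that library it was 0.075. *Rfxank* (ENSMUSG00000036120.10, chr8:70130794-70139154), the ankyrin repeat subunit, was at 4.73, 4.96 and 4.74 in controls and at 4.90, 4.39 and 4.82 in *Nr3c1Foxp3-Cre* libraries. Its log2 fold change was -0.11 (SE 0.17, 95% CI -0.50 to 0.28, limma adjusted p = 1.0), and it was 0.044 without *Nr3c1Foxp3-Cre* 2, the lowest library.

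*Rfxap* (ENSMUSG00000036615.6, chr3:54803115-54807791), the third subunit, was at 5.76, 5.68 and 5.65 log2 CPM in controls and at 5.60, 5.57 and 5.59 in *Nr3c1Foxp3-Cre* libraries. The groups did not overlap, and the whole range was 0.18 log2 units. In size the log2 fold change was -0.11 (SE 0.11, 95% CI -0.35 to 0.14, limma adjusted p = 1.0).

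Several members share exon bases with a neighbor on the opposite strand, and the library kit is not stated to mark strand, so reads from these stretches cannot be assigned by strand. Of the annotated exon bases, 33.8% of *Rfxank* overlap *Nr2c2ap*, 26.8% of *Rfx5* overlap *B230398E01Rik*, 10.4% of *H2-DMa* overlap *Brd2* and 3.45% of *Ciita* overlap *Dexi*. These neighbors were looked up after the members' values had been seen. Their log2 fold changes were -0.17 for *Nr2c2ap*, -0.074 for *Brd2* and -0.081 for *Dexi*, each with a limma adjusted p of 1.0, and the groups did not overlap for *Nr2c2ap*. *H2-Ab1*, *H2-Eb1* and *Rfxap* shared no 50-base stretch with another gene.

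The genes that work with the members were read in the same fit. None passed an adjusted p of 0.05 (limma). Of the peptide loading and turnover genes, 9 had values, of which 7 had a lower and 2 a higher mean, with a median log2 fold change of -0.13. At an unadjusted p under 0.05, 1 of them was called: *Ctsh*, an aminopeptidase of the lysosome, at 5.32, 5.27 and 5.0 log2 CPM in controls and 4.73, 4.76 and 5.02 in *Nr3c1Foxp3-Cre* libraries (log2 fold change -0.36, SE 0.15, limma adjusted p = 1.0). Control 3 lay just below *Nr3c1Foxp3-Cre* 3. Over all genes, 3.26% were under an unadjusted p of 0.05 and 7.41% had groups that did not overlap. For the 9 genes here, the groups did not overlap for 2. One was *Ctss*, the protease that makes a late cut in the invariant chain, at 8.49 to 8.59 log2 CPM in controls and 8.24 to 8.44 in *Nr3c1Foxp3-Cre* libraries (log2 fold change -0.17, limma adjusted p = 1.0). The other was *Ifi30*, the thiol reductase GILT, with a log2 fold change of -0.18 (limma adjusted p = 1.0).

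Upstream of the promoters, the 10 cofactors (NF-Y and CREB subunits, histone acetyltransferases and related factors) had 5 lower and 5 higher means, with a median log2 fold change of -0.026. At an unadjusted p under 0.05, 0 of them were called. The 10 genes of the interferon-γ axis also had 5 lower and 5 higher means, a median of 0.022 and 0 calls at that level. In that axis *Ifng*, the cytokine, had a log2 fold change of 0.20 (95% CI -0.21 to 0.60) and *Irf1*, an early target, 0.18 (95% CI -0.13 to 0.50). Of the 13 class I presentation genes, 10 had lower and 3 higher means, with a median of -0.042 and 0 calls at that level. *H2-D1* was at the top value that quantile normalization allows in 5 of 6 libraries, so its differences were capped. The plot of log2 fold changes along the class II pathway shows 2 intervals that leave out 0, those of *H2-Aa* and *Ctsh*.

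**Figure D3:**
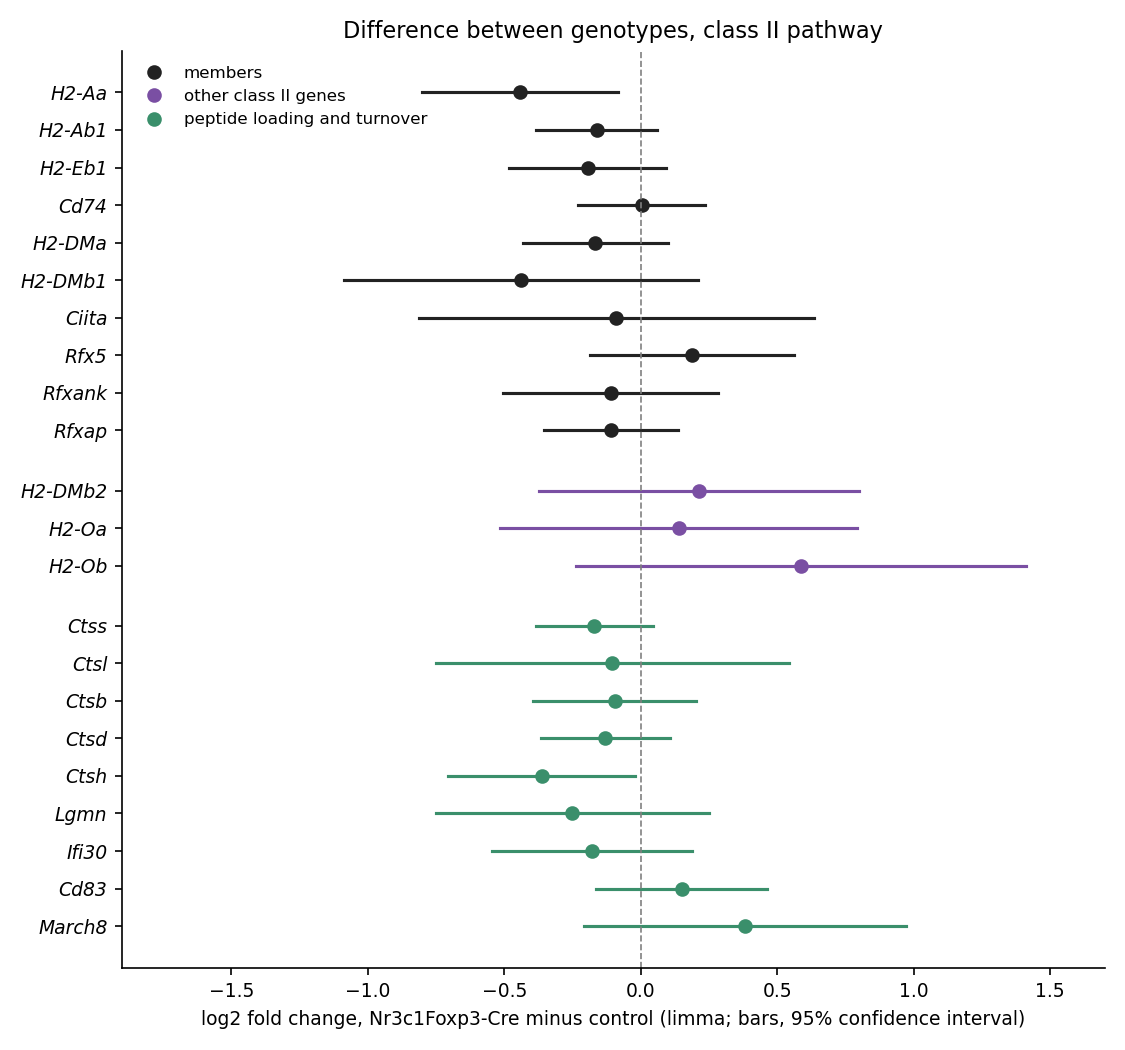
Log2 fold change (*Nr3c1Foxp3-Cre* minus control; points) with its 95% CI from limma (lines) for the members, the other class II genes with values, and the peptide loading and turnover genes. Most intervals cross 0, and those of *Ciita* and *H2-Ob* are the widest of the members and other class II genes.

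Levels of different genes were compared per length of annotated exons, as log2 CPM per kb over the 6 libraries. *Cd74* stood first at 9.27 (range 9.15 to 9.36; 617 CPM per kb), and *H2-Ab1* came next at 6.31 (6.17 to 6.54; 79.3 CPM per kb). *H2-Eb1* was at 5.09 (4.86 to 5.31). *Rfxap* at 4.48, *H2-Aa* at 4.45, *H2-DMa* at 4.39 and *H2-DMb1* at 4.26 did not differ beyond their spread by this length, since their ranges overlapped, and those of *H2-Aa* and *H2-DMb1* just reached that of *H2-Eb1*. *Rfxank* at 2.77, *Rfx5* at 1.94 and *Ciita* at -1.40 followed with separate ranges.

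On the same scale of log2 CPM per kb, the lineage gene *Cd4* was at 7.01 and *Foxp3*, the transcription factor of Tregs, at 1.74. *Cd74* was thus above *Cd4* and *Ciita*, at 0.380 CPM per kb, below *Foxp3*, by either length used. *H2-Ab1* was below *Cd4* by annotated exons alone, since by the longest protein-coding transcript both were at 7.39. The order in the middle depended on the length used. For *H2-Aa* the annotated exons cover 3798 bases, against 1128 in its longest protein-coding transcript. By the latter length *H2-Aa* was at 6.20 log2 CPM per kb and moved up, between *H2-Ab1* at 7.39 and *H2-Eb1* at 5.31. *H2-DMa*, at 5.18 (5.0 to 5.36), then lay above *Rfxap* at 4.53 (4.46 to 4.64) with no overlap of their ranges.

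**Figure D4:**
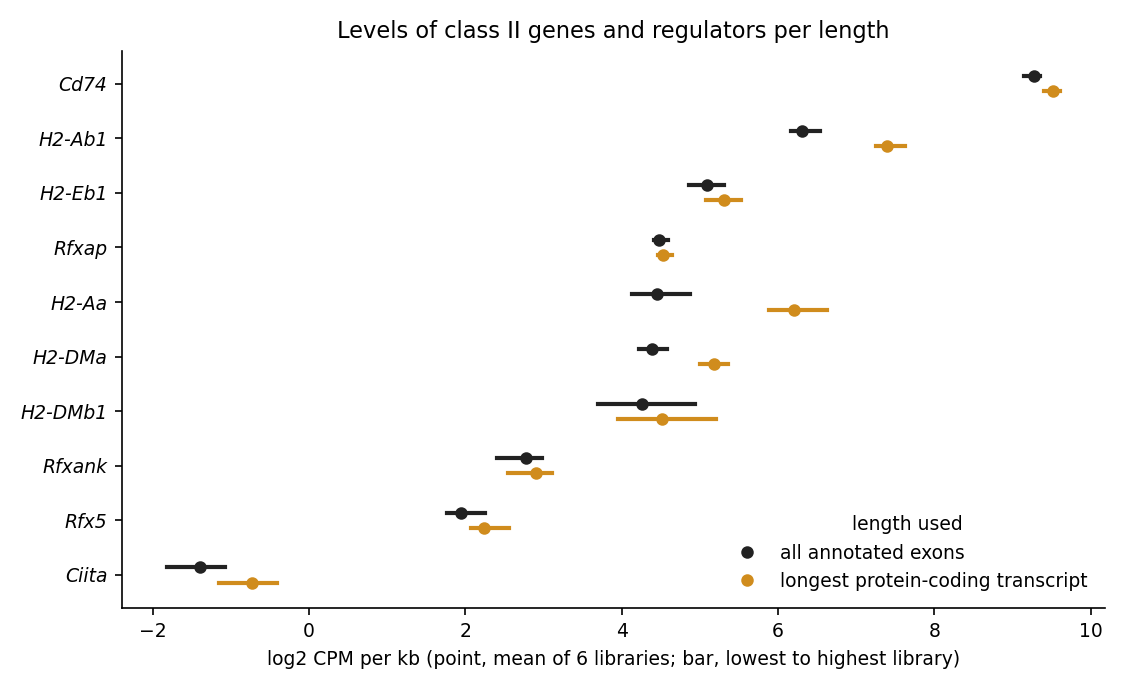
Log2 CPM per kb of the 10 members, as the mean of 6 libraries (point) and the range from lowest to highest library (line), with all annotated exons (black) or the longest protein-coding transcript (orange) as the length. *Cd74* is highest and *Ciita* lowest by both lengths, and *H2-Aa* moves from 4.45 to 6.20.

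Cells that carry class II were looked for by their markers. All 18 macrophage and monocyte markers had values, summing to 591 to 988 CPM in controls and 512 to 1003 CPM in *Nr3c1Foxp3-Cre* libraries. Of them 17 had a lower and 1 a higher mean in *Nr3c1Foxp3-Cre* libraries, with a median log2 fold change of -0.42. At an unadjusted p under 0.05, 0 of the 18 were called. Over all genes, 50.5% had a log2 fold change below 0 and 3.26% were called at that level. The defining marker *Lyz2*, lysozyme, was at 8.18, 7.75 and 7.73 log2 CPM in controls and at 7.34, 8.21 and 7.5 in *Nr3c1Foxp3-Cre* libraries. *C1qa*, a complement gene of tissue macrophages, was at 4.56, 3.67 and 4.53 in controls and at 2.99, 4.06 and 3.81 in *Nr3c1Foxp3-Cre* libraries. *C1qa* was highest in control 1, control 3 and *Nr3c1Foxp3-Cre* 2, and *Lyz2* in control 1 and *Nr3c1Foxp3-Cre* 2.

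The 6 genes of class II chains, invariant chain and DM were set beside these markers as a mean of values centred over the 6 libraries. That mean was 0.19, -0.018 and 0.18 log2 units in controls and -0.086, -0.19 and -0.071 in *Nr3c1Foxp3-Cre* libraries, and the centred mean of the macrophage markers was 0.54, -0.10 and 0.32 in controls and -0.53, 0.13 and -0.36 in *Nr3c1Foxp3-Cre* libraries. Both means were high in control 1 and control 3. Of the 6 genes, *H2-Aa* and *H2-DMb1* had their highest values in those libraries. *H2-Ab1* and *H2-Eb1* were highest in control 2, and *Cd74* was lowest in control 3. In *Nr3c1Foxp3-Cre* 2 the macrophage markers were above average and the mean of the class II genes was at its lowest.

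With the macrophage marker mean as a covariate, a fit chosen after seeing the data, the log2 fold change was -0.31 for *H2-Aa* (limma adjusted p = 0.536) and 0.018 for *H2-DMb1* (limma adjusted p = 0.988). In the same fit it was -0.28 for *H2-Ab1* (limma adjusted p = 0.317), -0.39 for *H2-Eb1* (limma adjusted p = 0.260) and -0.41 for *Rfxank* (limma adjusted p = 0.379). These 3 members were under an unadjusted p of 0.05 in that fit, *H2-Aa* was not, and 0 members passed the adjusted threshold. Of all genes 13.1% were under an unadjusted p of 0.05 in that fit, against 3.26% without the covariate. In bulk libraries, fewer class II positive cells and less class II RNA per cell cannot be told apart.

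Of the 12 dendritic cell markers, 8 had values and *Itgax*, the CD11c gene, had none. *Flt3* was at -0.48 to 1.69 log2 CPM, and *Zbtb46*, the factor of classical dendritic cells, at 4.6 to 5.08. The 8 summed to 176 to 243 CPM in controls and 139 to 180 CPM in *Nr3c1Foxp3-Cre* libraries, with 4 lower and 4 higher means. *Ccr7*, a chemokine receptor that T cells also make, was at 7.05, 7.5 and 7.07 log2 CPM in controls and 6.95, 6.63 and 6.20 in *Nr3c1Foxp3-Cre* libraries (log2 fold change -0.61, SE 0.19, limma adjusted p = 1.0, under 0.05 unadjusted), and it accounted for the largest part of that sum. Of the 10 B cell markers, 4 had values, all with higher means, summing to 586 to 748 CPM in controls and 640 to 849 CPM in *Nr3c1Foxp3-Cre* libraries. The defining markers *Ms4a1* and *Cd79a* had none. The table holds only genes that passed the authors' filter on low counts, so a gene without a value was low and not shown to be absent.

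The 9 T cell markers moved little, with 6 lower and 3 higher means, a median log2 fold change of -0.029 and 0 calls at an unadjusted p under 0.05. Over all genes, 3.26% were called at that level. *Foxp3* was at 3.39 to 4.42 log2 CPM in controls and 3.50 to 4.47 in *Nr3c1Foxp3-Cre* libraries. Of the 8 Treg markers, 1 was called at that level, the chemokine receptor *Ccr8* (log2 fold change -0.53, limma adjusted p = 1.0), and the median was -0.027. The 8 melanocyte markers had a median of -0.093 with 0 calls at that level. Their centred mean was 0.62, -0.79 and 0.27 in controls and 0.074, 0.57 and -0.74 in *Nr3c1Foxp3-Cre* libraries. Of the CD8 T and NK cell markers, 2 of 6 had values, and *Nkg7*, a granule gene, was called at that level (log2 fold change -0.39, limma adjusted p = 1.0).

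Stromal markers differed more than those of any immune cell listed, by the size of their median. Of the 7 fibroblast and endothelial markers with values, 3 were lower and 1 higher at an unadjusted p under 0.05, with a median log2 fold change of -1.01, and they summed to 243 to 516 CPM in controls and 149 to 237 CPM in *Nr3c1Foxp3-Cre* libraries. *Col1a1*, a collagen chain, had the largest change (log2 fold change -1.87, SE 0.29, limma adjusted p = 0.120), with *Col1a2* at -1.69, *Col3a1* at -1.41 and the endothelial marker *Pecam1* at 0.28. Over all genes, 1.65% were lower and 1.61% higher at an unadjusted p under 0.05. The part of fibroblasts and endothelial cells in the class II values was not tested. The plot of centred marker means puts the marker lists beside the class II genes by library.

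**Figure D5:**
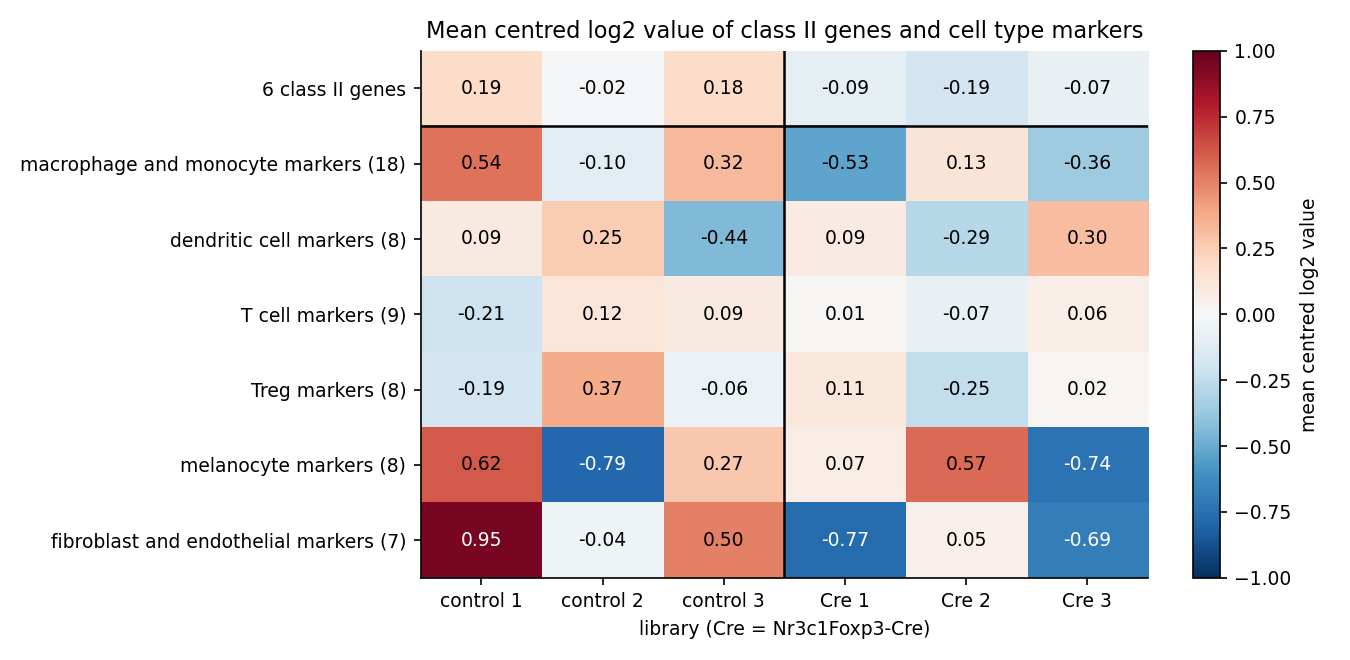
Mean of the centred log2 values of the 6 class II genes and of each marker list (number of genes with values in brackets) in each library; color runs from -1 (blue) to 1 (red). Control 1 and control 3 are high for the mean of the 6 class II genes and for macrophage, melanocyte and fibroblast markers. Of the 6 genes, *H2-Aa* and *H2-DMb1* are highest in those libraries. *Nr3c1Foxp3-Cre* 2 is the lowest for the class II mean at -0.19, with macrophage markers at 0.13 and melanocyte markers at 0.57.

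The genes whose profile over the 6 libraries was nearest to that of the 6 class II genes were named by the root mean square (RMS) difference of centred log2 values. Of 11405 eligible genes, with a median RMS difference of 0.237, the nearest were *Stk3* (0.0353), *Cisd2* (0.0356), *Nae1* (0.0365) and *Ifi27l2a* (0.0368), followed by *Gbp7*, *Btbd10*, *Psmb7* and *Psmb10* at 0.0461 to 0.0526. The class II genes were farther from their own mean, from 0.115 for *H2-DMa* and 0.146 for *H2-Ab1* to 0.173 for *Cd74* and 0.343 for *H2-DMb1*. Of the regulators, *Rfxap* was at 0.0966, *Rfxank* at 0.196, *Rfx5* at 0.257 and *Ciita* at 0.281. A gene that barely varies, such as *Rfxap*, also has a small difference, so a small value alone does not show a shared profile. The likeness is a description over 6 points.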

How the data were processed

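RNA-Seq was performed on 3 control and 3 *Nr3c1Foxp3-Cre* libraries of tumor Tregs, grouped by the genotype in the sample labels. The value columns are headed WT for controls and GRfoxp3 for *Nr3c1Foxp3-Cre*. They were matched to the labels by genotype and replicate number, and that match was not tested. Per the study's methods, Cutadapt 1.18 trimming, STAR 2.7.0f alignment to mm10 and RSEM 1.3.1 with GENCODE M21 gave the authors' estimated counts. They then removed genes with under 1 CPM, quantile normalized the libraries and used limma-voom 3.38.3. What was deposited is log2 CPM, quantile normalized by the authors, with a linear sum of 999633 CPM in each library. Counts and the weights of voom cannot be rebuilt from these values, depth is unknown, and quantile normalization gives every library the same distribution, so a shift shared by most genes would not be seen.

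The test was limma 3.58.1 (R 4.3.3) over the whole table of 12153 genes, with lmFit, a trended eBayes, no term beside genotype, and Benjamini-Hochberg adjustment at 0.05. The fit was tested on simulated independent values with added changes larger than that of any member. That check does not show how well changes of the members' size would be found. Lengths and positions came from GENCODE M21 (99.81% of genes matched by identifier) and promoters from RefSeq on GRCm38.p6. Genes sharing sequence were found from 50-base stretches of GENCODE transcripts.

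The members, the pathway and marker lists, and the rule for named genes were chosen with earlier results of these data known. That rule took the 10 members, pathway genes at an unadjusted p under 0.05 or without overlap plus up to 4 for their role, defining cell type markers, marker genes at an unadjusted p under 0.05, *Nr3c1*, *Tsc22d3* and the 8 genes of most like profile. The neighbors on the opposite strand, *Ighm*, *Cd79b* and *Pax5* are named outside it. Alternatives were eBayes without a trend, quality weights per sample, dropping genes with a mean log2 value under 1, log2(CPM + 1), median centring over genes whose mean log2 value was 5 or more, the replicate number as a block, other lengths, and leaving out each library.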

Additional observations from a re-analysis of the deposited data

How the results depend on the processing

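No member passed an adjusted p of 0.05 in any of the 13 alternatives. Of the members' refitted log2 fold changes, 122 kept their direction and side of the threshold and 8 changed direction, all of members with no call; the cause was not tested. *Cd74* (0.0032) was -0.017 with the macrophage marker mean as a covariate and -0.055 to 0.042 with 1 library left out (-0.055 without control 3, -0.039 without *Nr3c1Foxp3-Cre* 3). *H2-DMb1* (-0.44) was 0.018 with the covariate, and -0.83 to -0.21 with 1 library left out. *Ciita* (-0.089) was 0.30 with sample quality weights and -0.32 to 0.053 with 1 library left out (0.053 without control 1, 0.0028 without control 2). *Rfxank* (-0.11) was 0.044 without *Nr3c1Foxp3-Cre* 2 and -0.21 without *Nr3c1Foxp3-Cre* 1. *H2-Aa* stayed between -0.62 and -0.31 in log2 fold change, and its adjusted p (limma) ran from 0.153 to 1.0. Members at an unadjusted p under 0.05 numbered 1, 0 without a trend, 3 with sample quality weights (11.3% of all genes), 3 with the covariate (13.1% of all genes) and 0 to 2 with 1 library left out (2.39% to 5.78% of all genes). Members without overlap numbered 2, and 2 to 5 with 1 library left out (5 without control 2, 4 without *Nr3c1Foxp3-Cre* 1), where 13.2% to 20% of all genes were apart. *H2-Ab1* (-0.16) was -0.082 with sample quality weights. The median log2 fold change of members stayed between -0.17 and -0.077.

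Over all genes, 7 were called (6 lower, 1 higher). Without a trend 0 were called (469 at an unadjusted p under 0.05), with sample quality weights 19 (12 lower, 7 higher), with the covariate 24 (23 lower, 1 higher), and with 1 library left out 0 to 8 (0 to 5 lower, 0 to 3 higher); 0 were called without control 3 or without *Nr3c1Foxp3-Cre* 2. Sample quality weights gave control 3 a weight of 7.47 and the other libraries 0.52 to 0.86. The pathway, marker and GR genes called numbered 1 (*Tsc22d3*), 0 without a trend, 3 with sample quality weights, 4 with the covariate and 0 to 3 with 1 library left out. With a block for replicate number, 0 genes in all, 0 of the lists and 0 members were called, and 275 genes had an unadjusted p under 0.05. Deviations of same-numbered libraries correlated at -0.329 to -0.0246 over genes, against -0.269 to 0.365 for libraries of different number, so the numbers were not taken to pair the libraries. The median level of the members per length, 4.42 log2 CPM per kb, was 4.61 with the longest transcript and 4.85 with the longest protein-coding transcript, a length chosen after seeing the data.

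Groups of 3 libraries limit all of this. The 95% interval of the log2 fold change ran from -0.38 to 0.060 for *H2-Ab1* and from -0.81 to 0.63 for *Ciita*. These intervals are not the smallest change that the test over all genes detects, which was not measured. In the same fit *Tsc22d3* at -1.56 was called (limma adjusted p = 0.0342). *Nr3c1* at -1.38 and *Col1a1* at -1.87 were not called (limma adjusted p = 0.120 for each). The lack of calls among the members therefore does not show that class II RNA was unchanged. The number of reads behind *Ciita*, at 1.43 to 2.18 log2 CPM, is unknown.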

Other observations

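*Ighm*, the immunoglobulin μ heavy chain gene of B cells, was at 9.16, 9.12 and 9.51 log2 CPM in control libraries and at 9.27, 9.68 and 9.57 in *Nr3c1Foxp3-Cre* libraries (log2 fold change 0.24, limma adjusted p = 1.0). It was picked out after its values were seen. These levels stood beside *Cd79b* at 3.82 to 4.55 log2 CPM and beside *Ms4a1*, *Cd79a* and *Pax5*, which had no value in the table. *Ighm* made up most of the summed B cell markers, so that sum does not follow the other markers of the list. The DO gene *H2-Ob*, which B cells carry, was higher in mean in *Nr3c1Foxp3-Cre* libraries as well, and its groups overlapped. Whether *Ighm* reads come from B cells was not tested.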
